A study of Rattus norvegicus with 12 samples.

Results

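The genes described here are 2 contractile genes that mark myofibroblasts and smooth muscle, Acta2 and Tagln, and the receptors of platelet-derived growth factor (PDGF), Pdgfrb and Pdgfra, in rat kidney cell lines. They were chosen by 4 Ensembl identifiers, of which 3 had a row among the 21698 genes of the counts table: ENSRNOG00000058039 (Acta2), ENSRNOG00000017628 (Tagln) and ENSRNOG00000018461 (Pdgfrb). ENSRNOG00000048800 (Pdgfra) was absent from the table and is not analysed here. The symbols come with the list of identifiers, since the counts table itself names no genes.

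RNA-seq was done on 12 libraries, 3 in each of 4 groups. Cis 40 NRK-52E cells, a line of rat kidney epithelium that stands in for the tubule, had received cisplatin at 40 µM, and Control NRK-52E cells had received vehicle. Cisplatin is a platinum compound that damages DNA and is toxic to the kidney tubule. NRK-49F cells, a rat kidney fibroblast line, were grown for 24 h in conditioned medium of NRK-52E cells that had been treated with 40 µM cisplatin (Cis 40 CM, called cisplatin medium here) or left untreated (Untreated CM, called untreated medium here). Both NRK-49F groups thus received medium conditioned by NRK-52E, and neither had plain medium. All cells were kept in DMEM with 5% FBS. The labels give 6 h of cisplatin followed by 24 h in fresh medium for making the conditioned medium, and the series text gives 24 h of treatment for the sequenced NRK-52E cells, so their exact exposure is not settled. Each group is 1 established line in culture, and nothing states that its 3 libraries are separate cultures. The p-values therefore rest on the spread among 3 libraries that may be technical replicates. In such bulk samples, fewer cells of a type and less RNA per cell cannot be told apart.

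Acta2 encodes smooth muscle alpha-actin, and Tagln encodes transgelin (SM22-alpha), a protein that binds actin filaments. Both are classic targets of serum response factor (SRF), which binds CArG boxes in promoters together with coactivators of the myocardin family, and both are used to recognise fibroblasts that have become myofibroblasts in the injured kidney. Pdgfrb and Pdgfra encode receptor tyrosine kinases that bind PDGF dimers and drive migration and division of mesenchymal cells. In the kidney Pdgfrb is known as a marker of pericytes and interstitial fibroblasts.

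The Acta2 promoter is shown because Acta2 changed in both lines and, as background, its CArG boxes are textbook SRF sites. RefSeq (GRCr8) gives its 250 bases upstream of the transcript start at chr1:241172504-241172753 on the minus strand, printed 5′ to 3′ with motif matches in capitals. Among the measured genes, Acta2 alone had an entry in the promoter table.
Acta2: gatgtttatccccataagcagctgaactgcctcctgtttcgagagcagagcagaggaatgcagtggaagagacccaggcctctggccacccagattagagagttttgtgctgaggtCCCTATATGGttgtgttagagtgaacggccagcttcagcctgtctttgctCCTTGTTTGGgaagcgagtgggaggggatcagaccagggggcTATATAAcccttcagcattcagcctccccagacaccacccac
The first 2 capital runs are CArG boxes with 1 C or G among their 6 central bases, at 134 to 125 and 84 to 75 bases upstream of the start, and the last is TATATAA, the TATA-box form searched, at 42 to 36 bases upstream. The motifs were searched on both strands and do not overlap. A strict CArG box, with only A or T in the centre, had no match in this window, and 1.5% of the 33469 RefSeq promoter windows of the same length held one. At least 1 box with a single C or G was found in 6.84% of the windows, at least 2 in 0.43%, and TATATAA in 3.42%. These matches are letters in a window, and binding of SRF was not measured.

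Total counts per library ranged from 9684887 to 12549675. Levels are given as CPM, the counts scaled to a common library size with TMM factors over all 12 libraries, and they are compared for one gene across groups, never between genes. Markers of other cell types were not used, because the counts table and the reference tables do not pair identifiers with names. Actin genes share much coding sequence, so some Acta2 reads may belong to, or have been lost to, another actin gene, and this was not tested.

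Both contractile genes were far lower in the line labelled fibroblast than in the line labelled epithelial, whereas Pdgfrb was higher in the fibroblast line. Of these markers of mesenchymal cells, Pdgfrb was thus higher under the fibroblast label, and Acta2 and Tagln under the epithelial label. Acta2 and Tagln are used for fibroblasts that have become myofibroblasts, so a low level alone does not decide a fibroblast label. Why both were high under the epithelial label was not tested. The labels were kept as given and could not be checked against other markers. Acta2 stood at 13.7, 14.6 and 16.5 CPM in untreated-medium NRK-49F and at 756, 774 and 778 CPM in NRK-52E with vehicle. Every NRK-49F library was thus below every NRK-52E library by a wide margin. NRK-49F was 51.3-fold lower (log2 fold change -5.68, standard error 0.067, edgeR quasi-likelihood test, Benjamini-Hochberg adjusted p = 1.82e-48). In this contrast 81.7% of 13127 genes tested were called, 40.9% higher and 40.9% lower in NRK-49F at an adjusted p below 0.05.

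Tagln differed even more between the untreated lines. It had 14, 19 and 19 counts, or 1.66 to 2.05 CPM, in untreated-medium NRK-49F, and 4446, 4513 and 4657 counts, or 328 to 344 CPM, in NRK-52E with vehicle. NRK-49F held so few Tagln reads that the exact Poisson interval of its lowest untreated library, which covers counting error only, ran from 7.65 to 23.5 counts at 95% confidence. Tagln was 177-fold lower in NRK-49F (log2 fold change -7.47, standard error 0.096, edgeR adjusted p = 9.518e-47). This standard error, like that of Acta2 above, was back-calculated from the F statistic and understates the error of so few NRK-49F counts. Between the NRK-49F groups, the standard error of the Tagln log2 fold change was 0.31. By this log2 difference, Tagln was among the 212 lowest and Acta2 among the 351 lowest of the genes tested.

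Pdgfrb, the receptor, had the opposite order. It was at 55.1, 56.3 and 58.7 CPM in untreated-medium NRK-49F and at 16.1, 17.6 and 19.4 CPM in NRK-52E with vehicle, with no overlap. NRK-49F was 3.19-fold higher (log2 fold change 1.67, standard error 0.076, edgeR adjusted p = 8.361e-25). With library size as the only scaling the median over all genes tested was a log2 fold change of -0.52, against -0.026 with TMM, and 3481 genes were called higher and 7696 lower, against 5364 and 5365. The 3 genes kept their directions under that scaling, with log2 fold changes of -6.17 for Acta2, -7.96 for Tagln and 1.18 for Pdgfrb. NRK-49F had been in conditioned medium and NRK-52E had not, so line and medium cannot be told apart.

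**Figure D1:**
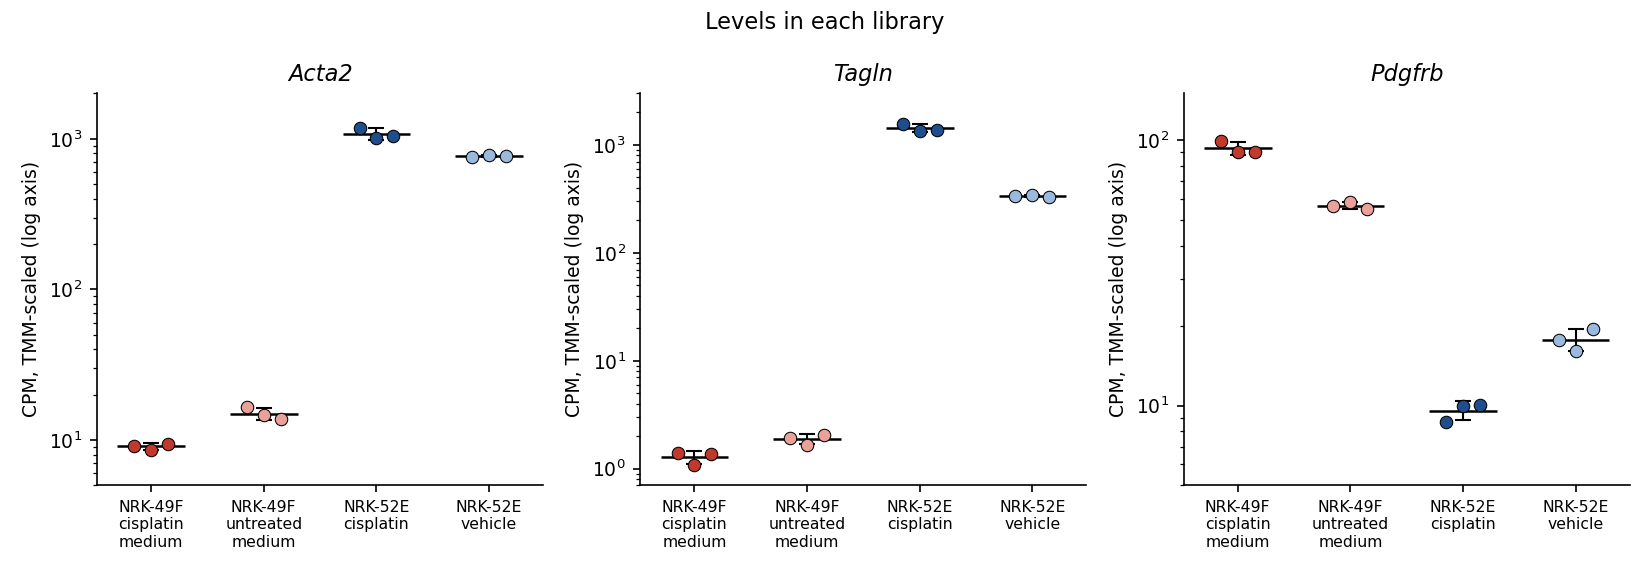
Level of each gene in each of the 12 libraries, as TMM-scaled CPM on a log axis, with points for libraries, the horizontal line for the group mean and bars for 1 SD (n = 3 per group). Acta2 and Tagln are far lower in both NRK-49F groups than in both NRK-52E groups, and Pdgfrb is higher in NRK-49F. Acta2 is higher with cisplatin in NRK-52E and lower with cisplatin medium in NRK-49F, and Pdgfrb the reverse.

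Both contractile genes rose with cisplatin in NRK-52E, Tagln much more than Acta2, and Pdgfrb fell. This comparison addresses how the drug changed the epithelial line that conditions the medium, though the sequenced cells may have had another exposure than those that made the medium. Of the 3 genes, 2 rose and 1 fell, in a comparison in which 76.2% of 12508 genes tested were called, 38.7% higher and 37.6% lower. A call alone therefore says little about these genes, and the sizes are described below. The median of their 3 log2 fold changes was 0.47, that of Acta2, against 0.0078 over all genes tested. It pools 2 genes that rose with 1 that fell, so it does not show a shift of the 3 together.

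Tagln was at 1344, 1386 and 1571 CPM with cisplatin and at 328, 338 and 344 CPM with vehicle. The lowest cisplatin library was thus well above the highest vehicle library. It averaged 1434 ± 121 CPM with cisplatin and 337 ± 8.21 CPM with vehicle (SD, n = 3 each), a 4.21-fold rise (log2 fold change 2.08, 95% interval 1.98 to 2.17, edgeR adjusted p = 1.803e-29). Its log2 fold change exceeded that of 93.3% of the genes tested. Of the 841 genes with a higher log2 fold change few were abundant: among 2519 genes with a mean of at least 100 CPM, 47 had a value as high as Tagln, itself included.

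Acta2, the actin of the contractile filaments, was at 1013, 1038 and 1186 CPM with cisplatin and at 756, 774 and 778 CPM with vehicle. These groups did not overlap either, but the rise was modest. The mean was 1079 ± 93.2 CPM with cisplatin and 769 ± 11.4 CPM with vehicle (SD, n = 3 each), 1.39-fold higher (log2 fold change 0.47, 95% interval 0.38 to 0.56, edgeR adjusted p = 1.104e-11). At 73.6% of genes below it, this change lay inside the bulk of the responses in this line. Acta2 did not pass when the test was set against a minimum change of 1.5-fold (adjusted p = 1).

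Pdgfrb had 113, 116 and 133 counts with cisplatin, or 8.66 to 10.1 CPM, and 208, 235 and 276 counts with vehicle, or 16.1 to 19.4 CPM. The receptor thus fell to about the same low level in all 3 cisplatin libraries. Its mean was 9.57 ± 0.79 CPM with cisplatin and 17.7 ± 1.67 CPM with vehicle (SD, n = 3 each), 1.88-fold lower (log2 fold change -0.91, 95% interval -1.13 to -0.69, edgeR adjusted p = 3.303e-09). Only 9.34% of genes tested had a lower log2 fold change.

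Replicate 1 of the cisplatin group had the highest Acta2 and Tagln and the lowest Pdgfrb of the 3 cisplatin libraries. Without it the log2 fold changes were 0.40 for Acta2, 2.01 for Tagln and -0.84 for Pdgfrb, all still called. The CPM of both contractile genes varied more among cisplatin libraries than among vehicle libraries, with coefficients of variation of 8.64% and 1.48% for Acta2 and 8.42% and 2.44% for Tagln. Counting error alone would give 0.855% for Acta2 and 0.742% for Tagln with cisplatin.

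**Figure D2:**
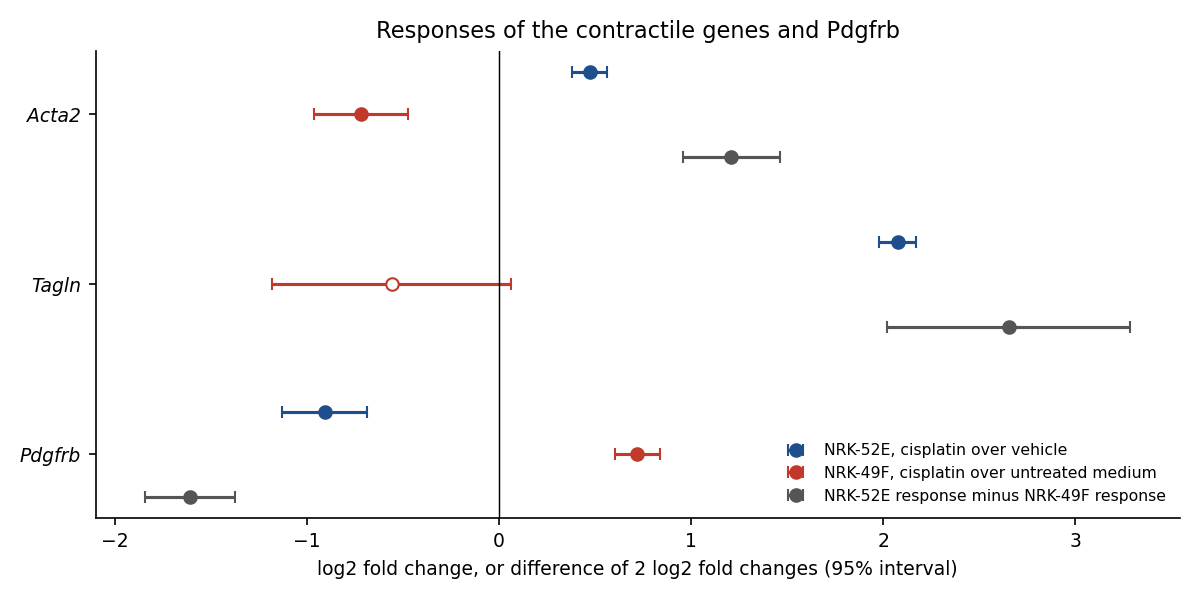
Log2 fold change of each gene with its 95% interval in NRK-52E (cisplatin over vehicle, blue), in NRK-49F (cisplatin over untreated medium, red), and the difference of the 2 (grey). Filled points passed the edgeR test at an adjusted p below 0.05. The open point, Tagln in NRK-49F, did not pass, and its interval runs from -1.18 to 0.06.

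The ratio of the contractile genes within a library does not depend on how libraries are scaled. Tagln counts per 100 Acta2 counts were 132.5, 132.7 and 133.5 in the cisplatin libraries of NRK-52E and 42.4, 44.2 and 44.7 in the vehicle libraries. The ratio was nearly constant among the cisplatin libraries, with a coefficient of variation of 0.402%, although the CPM values varied by 8.64% for Acta2 and 8.42% for Tagln. That spread is below the counting error of either gene alone, 0.855% for Acta2 and 0.742% for Tagln, so these 3 libraries understate it. The ratio was 3.04-fold higher with cisplatin, with p = 0.1 in an exact two-sided permutation test, the smallest possible with 3 libraries a group. This ratio is the quotient of the fold changes given above and was added after seeing the data, so it restates them free of scaling and is no separate evidence. In NRK-49F the ratio was 12.5, 14.4 and 15.2 with cisplatin medium and 11.4, 11.7 and 14.96 with untreated medium, with overlap (exact two-sided permutation p = 0.3).

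**Figure D3:**
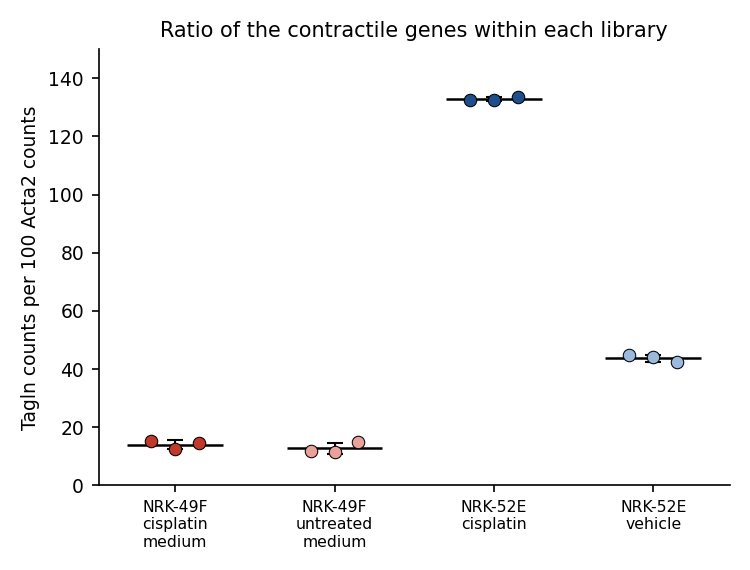
Tagln counts per 100 Acta2 counts in each library, with points for libraries, the line for the group mean and bars for 1 SD (n = 3 per group). The cisplatin libraries of NRK-52E lie between 132.5 and 133.5 and the vehicle libraries between 42.4 and 44.7, while the NRK-49F groups overlap.

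In NRK-49F fibroblasts, Pdgfrb rose and Acta2 fell with cisplatin medium, and the Tagln difference did not pass the test. This comparison sets fibroblasts in medium of cisplatin-treated epithelial cells against fibroblasts in medium of untreated ones. What in the medium acted on the fibroblasts was not tested. Of 11525 genes tested, 61.8% were called, 30.8% higher and 31.0% lower, so that 1 of the 3 genes rose and 1 fell against a background in which most genes were called. Scaled by library size only, all genes tested had a median log2 fold change of 0.22, against 0.017 with TMM, and 5916 genes were called higher and 1928 lower, against 3555 and 3568. Directions here are relative to the bulk of genes as TMM sets it, and the 3 genes had the same directions under both scalings.

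Pdgfrb was at 90.0, 90.1 and 99.6 CPM in cisplatin medium and at 55.1, 56.3 and 58.7 CPM in untreated medium. The cisplatin-medium libraries all lay above the untreated-medium ones. The mean was 93.2 ± 5.56 CPM in cisplatin medium and 56.7 ± 1.84 CPM in untreated medium (SD, n = 3 each), 1.65-fold higher (log2 fold change 0.72, 95% interval 0.60 to 0.84, edgeR adjusted p = 3.774e-13). With library size only, the log2 fold change was 0.92. It exceeded the change of 91.9% of genes tested with TMM.

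Acta2 had 92, 96 and 111 counts in cisplatin medium and 123, 127 and 162 counts in untreated medium. As CPM these were 8.59 to 9.46 in cisplatin medium and 13.7 to 16.5 in untreated medium, again without overlap. It averaged 9.08 ± 0.442 CPM in cisplatin medium and 14.9 ± 1.41 CPM in untreated medium (SD, n = 3 each), 1.64-fold lower (log2 fold change -0.72, 95% interval -0.96 to -0.47, edgeR adjusted p = 3.955e-06). With library size only it was -0.52, and Acta2 did not pass the test against a minimum change of 1.5-fold (adjusted p = 0.325).

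Tagln was near the limit of what this depth can compare. It had 12, 14 and 16 counts in cisplatin medium and 14, 19 and 19 counts in untreated medium, and an exact Poisson interval of 12 counts is 6.2 to 21.0. The mean was 1.28 ± 0.178 CPM in cisplatin medium and 1.88 ± 0.199 CPM in untreated medium (SD, n = 3 each). The log2 fold change of Tagln was -0.56, with a 95% interval from -1.18 to 0.06 (edgeR adjusted p = 0.113), so a fall of more than 2-fold and no change were both inside the interval.

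Pdgfrb counts per 100 Acta2 counts, which no scaling of libraries can change, were, as a further restatement, 952, 1047 and 1085 in cisplatin medium and 342, 402 and 402 in untreated medium. That is 2.69-fold more Pdgfrb per Acta2 in cisplatin medium. In NRK-52E the same ratio was 0.731, 0.97 and 0.986 with cisplatin and 2.07, 2.33 and 2.51 with vehicle, or 0.389 times as high with cisplatin. Neither pair of groups overlapped, and each gave the smallest possible exact two-sided permutation p of 0.1.

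**Figure D4:**
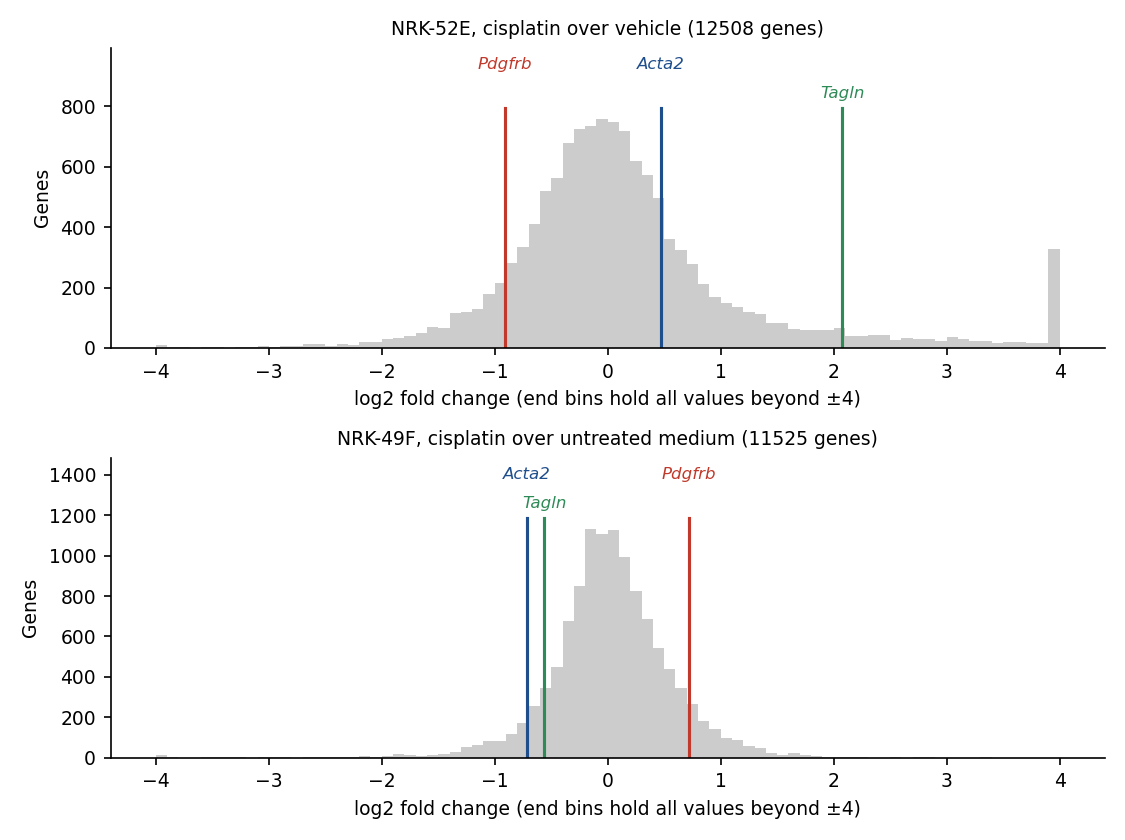
Histograms of the log2 fold changes of all genes tested in NRK-52E (12508 genes, cisplatin over vehicle) and NRK-49F (11525 genes, cisplatin over untreated medium), with the 3 genes marked by vertical lines. In NRK-52E, Acta2 and Tagln lie right of the centre and Pdgfrb left of it. In NRK-49F, Acta2 and Tagln lie left and Pdgfrb right, although Tagln did not pass the test there.

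The responses of all 3 genes differed between the lines in one edgeR fit of all 12 libraries. The response in NRK-52E minus that in NRK-49F was 1.21 for Acta2 (95% interval 0.96 to 1.46, adjusted p = 9.827e-12), 2.65 for Tagln (2.02 to 3.29, adjusted p = 3.754e-10) and -1.61 for Pdgfrb (-1.84 to -1.37, adjusted p = 1.239e-16), on the log2 scale. In this contrast 66.5% of 13127 genes passed, 33.9% with a higher and 32.6% with a lower response in NRK-52E. With library size only the calls were 3596 higher and 5199 lower, against 4447 and 4277, and the 3 differences kept their signs. Acta2 and Pdgfrb passed in both lines with opposite signs. Among 10937 genes with a test in each line, the signs of Acta2 (up with the drug in NRK-52E, down with the medium in NRK-49F) were shared by 1694 called genes (15.5%), and those of Pdgfrb, the reverse, by 1917 (17.5%). A fall at least as large as that of Pdgfrb together with a rise at least as large was found for 195 genes, Pdgfrb included. The lines received different agents, a drug and a medium, so line and agent cannot be told apart.

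The same contrast, read the other way, says that the lines stood further apart after treatment for all 3 genes. Acta2 was 119-fold lower in NRK-49F with cisplatin medium than in NRK-52E with cisplatin (log2 fold change -6.89, standard error 0.069, edgeR adjusted p = 1.147e-50). In that contrast Tagln was 1115-fold lower (log2 fold change -10.12, standard error 0.089, edgeR adjusted p = 4.053e-53). That ratio rests on 42 counts over the 3 NRK-49F libraries and 54488 over the 3 NRK-52E libraries. The standard errors of Acta2 and Tagln here, back-calculated from the F statistic, understate the error of so few NRK-49F counts. For Tagln the difference of responses, which includes these libraries, had a standard error of 0.31. Pdgfrb was 9.74-fold higher (log2 fold change 3.28, standard error 0.079, edgeR adjusted p = 1.117e-35). Of all genes tested 82.7% were called, 40.1% higher and 42.6% lower in NRK-49F, or 3760 and 7368 genes with library size only, against 5265 and 5597.

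The order of mean levels over the 4 groups was the same for the contractile genes. From low to high, Acta2 and Tagln ran from NRK-49F with cisplatin medium, through NRK-49F with untreated medium and NRK-52E with vehicle, to NRK-52E with cisplatin. The NRK-49F groups are the one pair of neighbours in that order whose Tagln levels did not pass the test, though their CPM values did not overlap. Pdgfrb ran the other way, from NRK-52E with cisplatin, through NRK-52E with vehicle and NRK-49F with untreated medium, to NRK-49F with cisplatin medium, and each neighbouring pair differed. Across the 12 libraries the log2 CPM of Acta2 and Tagln had a Pearson correlation of 0.99, and those of Pdgfrb with Acta2 and Tagln were -0.97 and -0.98. These values are a description, since the libraries of a line share nearly all of that difference.

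Genes of like pattern were sought by the Pearson correlation of log2 CPM over the 12 libraries among 12047 other genes with a mean of at least 1 CPM. The difference between lines dominated this measure, as 105 genes had a correlation of at least 0.99 with Acta2, 84 with Tagln and 18 with Pdgfrb. The gene of highest correlation with each was picked over these same libraries, so how it moved with treatment is no separate evidence. The gene nearest to Acta2, ENSRNOG00000025155 (r = 0.998), passed neither treatment test, and its likeness is in the split between the lines, with mean levels of 55.1 CPM in NRK-49F with cisplatin medium, 58.4 CPM with untreated medium, 109 CPM in NRK-52E with cisplatin and 103 CPM with vehicle. The gene nearest to Tagln, ENSRNOG00000066726 (r = 0.999), rose with cisplatin in NRK-52E to 15.7 CPM, against 5.71 CPM with vehicle (log2 fold change 1.44, edgeR adjusted p = 5.274e-13). It had 0 counts in all 6 NRK-49F libraries, where a floor of 3 counts is 0.239 to 0.288 CPM of the library total. This gene thus reached the mean of 1 CPM through NRK-52E alone. Its log2 values in NRK-49F were set by the prior count of 2, so its r rests in part on that fixed floor. The gene nearest to Pdgfrb, ENSRNOG00000045795 (r = 0.995), moved as Pdgfrb did in both lines, with log2 fold changes of -0.56 in NRK-52E (edgeR adjusted p = 2.494e-06) and 0.54 in NRK-49F (edgeR adjusted p = 8.302e-09).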

How the data were processed

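Stranded TruSeq mRNA libraries were made from TRIzol-extracted RNA, per the labels' protocols. For all 12 libraries the authors deposited raw counts of reads, listed by Ensembl gene identifier. The submitters' processing notes name STAR 2.7.10a, Subread and featureCounts. Genome build, annotation release and strandedness of counting were not given in the sources consulted, so reads of overlapping or near-identical genes may be shared. The members and lists were chosen with earlier results of these data known. Lists of related contractile, SRF and PDGF genes and of cell type markers could not be used, since 0 identifiers matched the RefSeq table.

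Replicates differed by more than sampling noise (chi-square 1.67 to 3.84 per degree of freedom over genes). Calls used edgeR 4.0.16 in R 4.3.3 (filterByExpr with minimum count 10 and total 15, TMM, quasi-likelihood test, Benjamini-Hochberg adjustment over all genes tested, threshold 0.05). Each line was fitted on its 6 libraries, and differences between lines in one fit of 12. Intervals are the log2 fold change ± the t quantile times its standard error. The steps were run on simulated data with a shared base profile and few changed genes, balanced up and down. Such data cannot test the scaling where most genes change. Named genes were the members and, per member, the 1 gene of highest correlation (log2 CPM, prior count 2). Alternatives were RLE size factors, library size only, no filter, DESeq2 1.42.0, a test against 1.5-fold, a replicate block, one fit of all libraries and leaving out each library. The ratios within libraries and the comparison of the treated lines were added after seeing the data. Figures used matplotlib 3.10.9.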

Additional observations from a re-analysis of the deposited data

Results flagged for a closer look

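Acta2, Tagln and Pdgfrb are listed because each responded differently in NRK-52E and NRK-49F when that difference was itself tested. The NRK-52E response minus the NRK-49F response was 1.21 for Acta2, 2.65 for Tagln and -1.61 for Pdgfrb on the log2 scale. The adjusted p-values over the alternatives ran from 8.349e-24 to 4.455e-06 for Acta2, 3.209e-17 to 6.26e-08 for Tagln and 3.597e-42 to 2.064e-11 for Pdgfrb. With 3 libraries a group, no formal test for a deviating library was made, though each library was left out in turn.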

How the results depend on the processing

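Over the 3 genes and the 5 comparisons, 238 of 240 recomputed values kept their direction and their side of the threshold, and 0 reversed. Part of this count could hardly come out otherwise. The test against 1.5-fold reuses the log2 fold changes of the main fit, so it cannot reverse a direction. In the comparisons between untreated and between treated lines, some libraries left out belonged to groups outside the contrast and entered only through scaling and spread. The other 2 were Acta2 tested against a minimum change of 1.5-fold, in NRK-52E (log2 fold change 0.47, adjusted p = 1) and in NRK-49F (-0.72, adjusted p = 0.325). That stricter test also lowered the number of genes called to 3883 in NRK-52E, 1184 in NRK-49F, 4512 for the difference of responses, 6709 between the untreated lines and 6238 between the treated lines. Leaving out each library gave log2 fold changes of 0.40 to 0.52 for Acta2, 2.01 to 2.12 for Tagln and -0.98 to -0.84 for Pdgfrb in NRK-52E, and -0.78 to -0.64, -0.64 to -0.45 and 0.67 to 0.75 for these genes in NRK-49F. Same-numbered libraries did not deviate together (correlations from -0.0488 to 0.0155), so the numbers were not taken as pairs. With the replicate block, 9382 genes were called in NRK-52E, 7020 in NRK-49F, 8577 for the difference, 9853 between the untreated and 9823 between the treated lines, and no call of the 3 genes changed. Depth limits Tagln in NRK-49F, at 12 to 19 counts per library.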
